A study of Mus musculus with 9 samples.

Results

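The DEAD and DEAH box RNA helicase genes were examined for BAP1 binding in the B cell precursor line Ba/F3. They were taken as all protein-coding genes of the mouse annotation whose symbol begins with Ddx or Dhx followed by a number, leaving out chromosome Y, which gave 53 genes of 22367. Of these, 37 carry a Ddx symbol and 16 a Dhx symbol. The rule uses names and no measured value. It takes in *Ddx26b*, a homologue of an Integrator subunit and no helicase, and *Ddx11*, a DNA helicase.

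DEAD and DEAH box proteins are named after a short run of amino acids in the motif that binds and hydrolyzes ATP. DEAD box proteins pry apart short RNA duplexes or clamp onto RNA, whereas DEAH box proteins move along a strand and pull RNA and protein complexes apart. In a growing cell they drive the steps of the spliceosome, the maturation of ribosomal RNA, mRNA export, translation and decay, and a few members detect viral RNA or act in germ cells. BAP1 is a deubiquitinase that takes ubiquitin off a lysine of histone H2A, the mark called H2AK119ub, and it acts in a large complex at chromatin.

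The study determined BAP1 binding by ChIP-Seq, in which DNA bound by a protein is recovered with an antibody and sequenced. One sample was wild-type Ba/F3 immunoprecipitated with an antibody against BAP1, and the other was a Ba/F3 line, kept under puromycin, that stably expressed murine BAP1 with a triple FLAG tag and was immunoprecipitated with an antibody against FLAG. Both grew with WEHI conditioned medium as the source of IL-3, and nothing in the list separates the added tagged protein from endogenous binding. The 4 input samples, and the 3 H2AK119ub samples from wild-type cells and the CRISPR-Cas9 *Bap1* knockout clones KO3 and KO4, were not analysed here. The processed file used here is 1 list of 13164 peaks, each 200 bp wide, for both immunoprecipitations together. It has no height, score or p-value and does not say in which sample a peak was found. Each immunoprecipitation was sequenced once and the depth is unknown from the list, so no value below has a replicate error, no test was made, and the Wilson 95% intervals cover counting error only. The presence of a peak is not a measure of expression, which was not analysed here.

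The promoter DNA under these peaks is shown first, for genes that between them carry most of the motifs searched, and for a further promoter of a single gene. Sequences are from mouse build mm9 (NCBIM37), written 5′ to 3′ on the strand of the gene, with matches to the motifs in capitals. Stretches were shortened where they would have shown a longer run of untranslated exon. The motifs are described with their frequencies further below. *Dhx34*, whose product acts in nonsense-mediated decay, has its peak centred 1 bp from a TSS and carries an ETS match (CCGGAAG) and overlapping NRF1 matches (GCGCNTGCG). *Ddx47*, for ribosomal RNA processing, shows an ETS match and a YY1 match (AAGATGGC). Its CpG ratio of 0.562 is the lowest among the helicase genes with a peak. *Ddx18*, a ribosome biogenesis gene, shows SP/KLF matches (GGGCGG). *Ddx11*, for sister chromatid cohesion, shows an E-box (CACGTG) beside an NRF1 match. *Ddx19a*, for mRNA export, shows a CRE (TGACGTCA). *Dhx15*, a spliceosome disassembly gene, shows an NF-Y match (AGCCAAT). *Ddx5*, a transcription and splicing cofactor, shows SP/KLF matches and a TATAAA. The last line is the peak of *Dhx30*, a gene for mitochondrial RNA metabolism, at a promoter far from that gene's other peaks.
Dhx34 peak, chr7:16807357-16807480, minus strand: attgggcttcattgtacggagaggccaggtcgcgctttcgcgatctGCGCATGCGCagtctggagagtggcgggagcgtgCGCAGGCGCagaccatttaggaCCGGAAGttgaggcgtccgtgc
Ddx47 peak, chr6:134961515-134961714, plus strand: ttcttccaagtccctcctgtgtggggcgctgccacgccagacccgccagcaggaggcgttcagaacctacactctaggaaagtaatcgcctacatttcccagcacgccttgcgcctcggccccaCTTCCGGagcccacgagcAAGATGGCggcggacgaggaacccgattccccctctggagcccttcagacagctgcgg
Ddx18 peak, chr1:123464537-123464667, minus strand: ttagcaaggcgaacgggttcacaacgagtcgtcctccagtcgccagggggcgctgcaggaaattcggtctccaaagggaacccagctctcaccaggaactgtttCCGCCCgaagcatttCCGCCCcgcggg
Ddx11 peak, chr17:66472782-66472889, plus strand: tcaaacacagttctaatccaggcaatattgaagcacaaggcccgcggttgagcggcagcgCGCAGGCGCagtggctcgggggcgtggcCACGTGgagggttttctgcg
Ddx19a peak, chr8:113521671-113521833, minus strand: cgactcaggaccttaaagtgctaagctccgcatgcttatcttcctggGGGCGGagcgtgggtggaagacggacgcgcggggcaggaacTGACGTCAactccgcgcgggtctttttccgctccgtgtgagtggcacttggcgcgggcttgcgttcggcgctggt
Dhx15 peak, chr5:52581729-52581905, minus strand: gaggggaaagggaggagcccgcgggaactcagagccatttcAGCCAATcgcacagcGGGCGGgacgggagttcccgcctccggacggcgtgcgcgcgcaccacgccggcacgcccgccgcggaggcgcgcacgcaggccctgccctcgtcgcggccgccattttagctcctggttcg
Ddx5 peak, chr11:106649825-106650024, minus strand: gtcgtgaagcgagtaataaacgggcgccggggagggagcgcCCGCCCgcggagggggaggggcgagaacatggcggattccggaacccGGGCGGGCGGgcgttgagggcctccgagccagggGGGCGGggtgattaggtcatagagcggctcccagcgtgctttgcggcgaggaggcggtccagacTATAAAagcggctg
Dhx30 peak at a further promoter, chr9:110003440-110003560, minus strand: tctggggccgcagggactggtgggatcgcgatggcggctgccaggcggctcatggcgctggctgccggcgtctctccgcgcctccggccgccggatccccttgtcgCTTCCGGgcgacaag

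Promoters of 3 genes without a peak are given for contrast. They were the highest, the middle and the lowest in CpG ratio among the 7 such genes, taken at the TSS nearest a peak. *Ddx3x*, which has a role in translation initiation, holds a BANP match (CTCGCGAG) and an SP/KLF match, *Ddx60*, an interferon-linked gene, holds a TATAAA, and *Dhx58*, which encodes the RNA sensor LGP2, holds none of the letters searched.
Ddx3x promoter, chrX:12857846-12858125, plus strand: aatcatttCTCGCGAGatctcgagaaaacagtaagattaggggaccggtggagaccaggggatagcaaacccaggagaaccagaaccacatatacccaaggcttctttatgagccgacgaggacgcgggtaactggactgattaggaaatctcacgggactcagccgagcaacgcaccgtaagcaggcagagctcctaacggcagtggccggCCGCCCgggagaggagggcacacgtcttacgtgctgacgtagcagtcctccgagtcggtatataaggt
Ddx60 promoter, chr8:64406636-64406913, plus strand: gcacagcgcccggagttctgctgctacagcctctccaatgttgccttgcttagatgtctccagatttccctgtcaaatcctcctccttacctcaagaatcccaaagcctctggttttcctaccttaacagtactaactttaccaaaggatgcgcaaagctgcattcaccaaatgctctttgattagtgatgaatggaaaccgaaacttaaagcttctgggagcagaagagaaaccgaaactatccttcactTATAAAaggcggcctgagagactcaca
Dhx58 promoter, chr11:100565556-100565763, minus strand: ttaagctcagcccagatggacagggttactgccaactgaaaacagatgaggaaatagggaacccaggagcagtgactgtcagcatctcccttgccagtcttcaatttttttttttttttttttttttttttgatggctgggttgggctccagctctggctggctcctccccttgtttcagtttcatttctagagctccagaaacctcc

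A gene was said to have a gene-proximal peak when the middle of a peak lay within 1 kb of any of its annotated transcription start sites (TSSs). Of the 53 helicase genes, 46 had one (86.8%, 95% interval 75.2 to 93.5), against 39.6% of all protein-coding genes (8850 of 22367). The 46 genes carried 62 gene-proximal peaks in all. Peaks were present at 31 of the 37 Ddx genes (83.8%, 68.9 to 92.3) and at 15 of the 16 Dhx genes (93.8%, 71.7 to 98.9), and these intervals overlapped. All 46 genes with a peak lie on autosomes, where 5 of 51 helicase genes had none. Both genes on chromosome X, *Ddx3x* and *Ddx26b*, had no peak, on a chromosome where 23.6% of protein-coding genes had one. *Ddx3y* on chromosome Y, outside the rule, had 0 gene-proximal peaks, and the nearest peak lay 517253 bp away.

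Genes with more annotated TSSs offer more places for a peak to be counted. Among all protein-coding genes the share with a peak was 23.8% at 1 annotated TSS and 52.0% at 2 or more. Among the helicase genes it was 14 of 15 (93.3%, 70.2 to 98.8) at 1 TSS and 32 of 38 (84.2%, 69.6 to 92.6) at 2 or more. These intervals are wide and overlap, and the part of TSS number in the share was not tested.

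**Figure D1:**
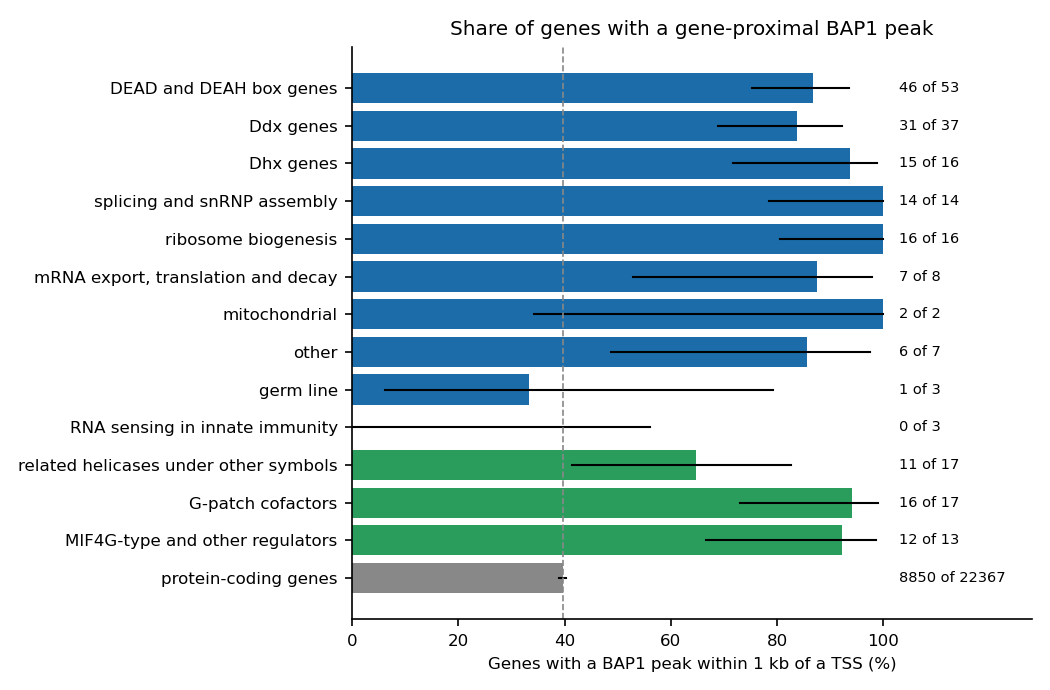
Percent of genes with a BAP1 peak within 1 kb of a TSS (x axis), by list (y axis). Lines are Wilson 95% intervals. Blue bars are the 53 helicase genes and their subsets, including the role lists, in which each gene was given 1 role only. Green bars are 3 lists of related helicases or partner genes. The dashed line is the 39.6% of all protein-coding genes. The splicing (14 of 14) and ribosome biogenesis (16 of 16) lists stood at 100%, and the RNA sensing list at 0 of 3.

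All 14 genes for splicing and snRNP assembly had a gene-proximal peak (100%, 78.5 to 100). Their nearest peaks lay 3 to 511 bp from a TSS, with a median of 69.0 bp. Those of *Ddx42* and *Dhx38* lay nearer to the TSS of a neighboring gene. The 14 genes cover successive steps of the spliceosome. *Ddx46* (Prp5) and *Ddx42* act around the branch site early in assembly, and their peaks lay 65 bp and 511 bp upstream. *Ddx23* (Prp28), which acts before the spliceosome becomes active, had its nearest peak 73 bp upstream of a TSS. The 4 DEAH box ATPases of the catalytic steps, mRNA release and spliceosome disassembly all had peaks. The nearest lay at 131 bp for *Dhx16* (Prp2), 242 bp for *Dhx38* (Prp16), 7 bp for *Dhx8* (Prp22) and 47 bp for *Dhx15* (Prp43). *Dhx35* and *Ddx41*, both found in catalytic spliceosomes, had theirs at 20 bp and 88 bp. *Ddx39* and *Ddx39b*, close paralogs that couple splicing to mRNA export, had peaks at 88 bp and 3 bp. *Ddx20*, of the SMN complex that assembles snRNPs, had a peak at 13 bp, and the paralogs *Ddx5* and *Ddx17* had theirs at 78 bp and 25 bp.

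All 16 genes for ribosome biogenesis also had a gene-proximal peak (100%, 80.6 to 100). The nearest peaks lay 1 to 266 bp from a TSS with a median of 40.0 bp, and 13 of 16 were within 100 bp. Among genes for the small subunit, *Ddx47* (Rrp3), *Ddx49* (Dbp8), *Ddx52* (Rok1) and *Dhx37* (Dhr1) had peaks at 16, 3, 75 and 57 bp. Among genes for the large subunit, *Ddx24* (Mak5), *Ddx27* (Drs1), *Ddx31* (Dbp7) and *Ddx51* (Dbp6) had them at 40, 30, 54 and 33 bp, and *Ddx54* (Dbp10), *Ddx55* (Spb4) and *Ddx56* (Dbp9) at 129, 61 and 39 bp. No gene for either subunit lacked a gene-proximal peak, although the nearest peaks of *Ddx31* and *Ddx51* lay nearer to the TSS of a neighboring gene. *Ddx18* (Has1), which acts in both subunits, had its peak at 1 bp, *Ddx10* (Dbp4) at 40 bp and *Dhx33*, of ribosomal RNA synthesis, at 122 bp. The nucleolar paralogs *Ddx21* and *Ddx50* are neighbors on chromosome 10 and read in the same direction. The peak of *Ddx21* covered its TSS, 32 bp upstream, while that of *Ddx50* lay 266 bp upstream and did not reach its TSS.

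Of the 8 genes for mRNA export, translation and decay, 7 had a gene-proximal peak (87.5%, 52.9 to 97.8), at 1 to 122 bp. They were *Dhx34* at 1 bp, *Ddx1*, of the tRNA ligase complex, at 23 bp, and *Ddx6*, which represses and decaps mRNA in P bodies, at 38 bp. *Dhx36*, which unwinds G-quadruplexes, had its nearest peak at 34 bp, and *Dhx29*, for initiation on structured leaders, at 122 bp. The export paralogs *Ddx19a* and *Ddx19b*, neighbors on chromosome 8, had separate peaks at 33 bp and 26 bp. The exception was *Ddx3x*, where the nearest peak lay 50105 bp upstream. The mitochondrial genes both had peaks, *Ddx28*, of mitochondrial ribosome assembly, at 41 bp and *Dhx30* at 23 bp.

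The lists for RNA sensing and for the germ line had fewer genes with a peak. Each gene was put in 1 role list only, so genes of the other lists may also sense viral RNA. None of the 3 genes listed for sensing of viral RNA had a gene-proximal peak (0 of 3, upper limit of the interval 56.1%). The nearest peak lay 28753 bp from *Ddx58* (RIG-I), 8169 bp from *Dhx58* (LGP2) and 440382 bp from *Ddx60*. Of the 3 germ line genes, 1 had a peak (33.3%, 6.15 to 79.2). *Ddx4*, the Vasa homologue, had its nearest peak at 8355 bp and the cancer/testis gene *Ddx43* at 47290 bp. The testis gene *Ddx25* was counted through a peak 977 bp upstream, which lay 13 bp from the TSS of its divergent neighbor *Pus3*. With 3 genes in each list the intervals are wide, and both include the 39.6% of all protein-coding genes.

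Among the 7 other genes, 6 had a peak. *Ddx11* had it at 21 bp, *Dhx9*, which encodes RNA helicase A, at 41 bp, *Dhx40* at 1 bp, *Dhx32* at 41 bp, *Ddx59* at 37 bp and *Dhx57* at 282 bp. At *Ddx26b* a peak lay 1145 bp downstream of the nearest own TSS, in an intron, and so just outside the limit. The limit of 1 kb thus fell between *Ddx25*, at 977 bp, and *Ddx26b*, at 1145 bp.

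Peaks sat at the start of the helicase genes and slightly upstream of it, as at bound genes in general. The middle of the nearest peak lay a median of 40 bp from a TSS (quartiles 23.5 to 77.25, range 1 to 977, 46 genes), against 46 bp (19 to 91) for all protein-coding genes with a peak. It was upstream in 35 of 46 (76.1%, 62.1 to 86.1), against 75.0%. The peak covered the TSS itself in 37 of 46 (80.4%, 66.8 to 89.3), against 77.7%. By the annotation at its middle, it lay outside the gene in 27, in untranslated exon in 16, in an intron in 2, in an exon of a noncoding transcript in 1 and in coding exon in 0. The nearest were those of *Ddx18*, *Dhx34* and *Dhx40*, at 1 bp. Beyond 200 bp lay 5 genes, *Ddx25*, *Ddx42*, *Dhx57*, *Ddx50* and *Dhx38*. For 4 of them, all but *Ddx50*, the TSS of another protein-coding gene was nearer to the peak.

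**Figure D2:**
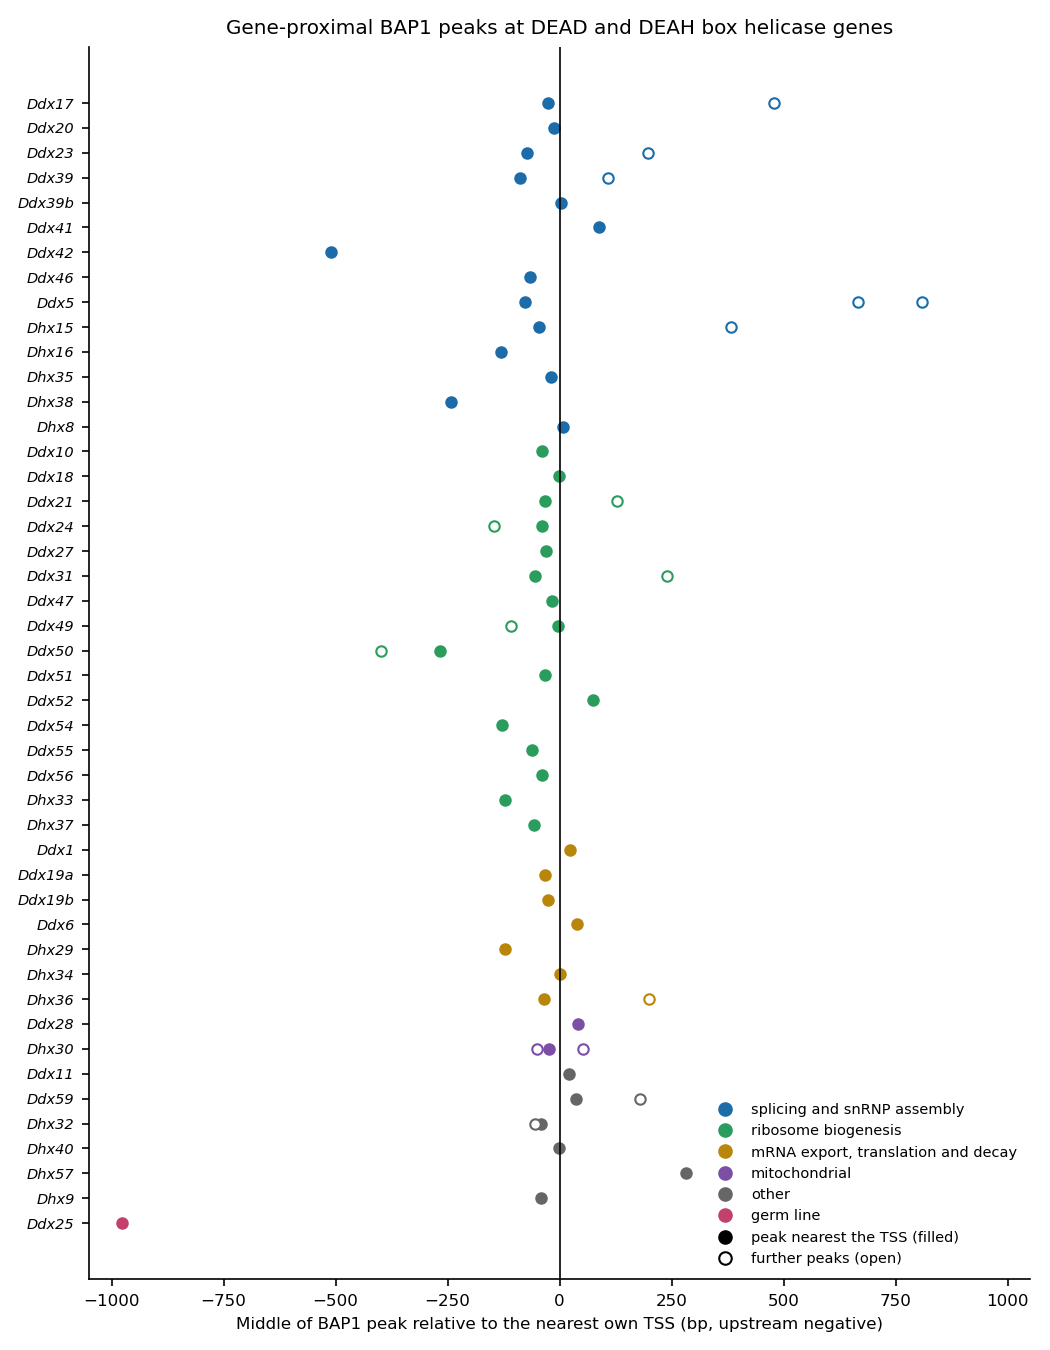
Position of every gene-proximal BAP1 peak at the 46 helicase genes that have one. The x axis is the distance of the peak's middle from the nearest own TSS in bp (upstream negative), each row is a gene, colors are role lists, filled points are the nearest peak and open points further peaks. Most nearest peaks lie within 100 bp (37 of 46), and *Ddx25* and *Ddx42* stand apart at -977 and -511 bp.

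More than 1 gene-proximal peak was listed at 14 of the 53 helicase genes (26.4%, 16.4 to 39.6), against 10.1% of all protein-coding genes. Taken among genes with a peak, the shares were 30.4% (19.1 to 44.8) and 25.5%, and the first interval holds the second value. There were 2 peaks at 12 genes and 3 at *Ddx5* and *Dhx30*. In 7 of the 14 genes neighboring peaks overlapped and may be 1 broader region. These were *Ddx5*, *Ddx21*, *Ddx24*, *Ddx49*, *Ddx50*, *Ddx59* and *Dhx32*, with middles 106 to 160 bp apart. At *Ddx17*, *Ddx23*, *Ddx31*, *Ddx39*, *Dhx15* and *Dhx36* the second peak stood apart and lay downstream of the TSS, at 479 bp for *Ddx17*, 382 bp for *Dhx15*, 240 bp for *Ddx31* and 108 to 199 bp for the others. At *Ddx5* the further peaks lay 666 and 809 bp downstream of the nearest own TSS and overlapped each other. That TSS lies inside the annotated span of the gene. The first peak covered another TSS inside the span, 78 bp from its middle. The peaks of *Dhx32*, although they overlap, and those of *Dhx30* each covered a different annotated TSS. At *Dhx30* a pair of them had TSSs under them, with their middles 23 and 51 bp upstream and 301 bp apart, and the last, 16124 bp further into the gene, covered another annotated TSS from which its middle was 52 bp downstream. The region furthest into the gene, at chr9:110003440-110003639, lies in untranslated exon, and part of it is printed above.

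Peaks inside the gene but beyond 1 kb of every own TSS were present at 4 of 53 helicase genes (7.55%, 2.97 to 17.9), against 5.09% of all protein-coding genes. Each had 1, in an intron. They lay 18071 bp from a TSS in *Ddx31*, 9131 bp in *Dhx8*, 1145 bp in *Ddx26b* and, upstream of the nearest TSS of a shorter transcript, 5946 bp in *Dhx32*. None of the 4 was within 1 kb of a TSS of another annotated gene.

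Some peaks cannot be assigned to the helicase gene alone. At 13 of 46 genes the nearest peak also lay within 1 kb of a TSS of another protein-coding gene (28.3%, 17.3 to 42.5), against 24.7% of all genes with a peak. All these neighbors lie on the opposite strand. In 12 of the 13 pairs the TSSs nearest the peak point away from each other, and at *Dhx57* and *Morn2* they point toward each other. The annotated spans of the genes overlap in 4 pairs, those of *Ddx28*, *Dhx30*, *Dhx32* and *Dhx57*. At *Ddx31* and *Gtf3c4*, for a transcription factor of RNA polymerase III, the TSSs are 54 bp apart and the peak is centred on that of *Gtf3c4*. At *Ddx51* and *Noc4l*, both for ribosome biogenesis, they are 34 bp apart, and the peak lay 33 bp from the first and 1 bp from the second. The TSS of *Ddx28* is 21 bp from an annotated TSS of *Dus2l*, for a tRNA-modifying enzyme, that lies inside the span of *Dus2l*. At *Ddx49* and *Cope*, for a coatomer subunit, the TSSs are 29 bp apart. The peak was nearer to the helicase gene in these last pairs. It was also nearer to *Ddx5* than to *Ccdc45*, to *Ddx54* than to *1110008J03Rik*, to *Dhx29* than to the exosome helicase gene *Skiv2l2*, to *Dhx30* than to *Gm10615* and to *Dhx32* than to *Fank1*. It was nearer to the neighbor for *Ddx25* (*Pus3*, 13 bp), *Ddx42* (*Ccdc47*, 71 bp), *Dhx38* (*Txnl4b*, itself for a spliceosome protein, 49 bp) and *Dhx57* (*Morn2*, 18 bp). In all, the nearest annotated TSS belonged to the helicase gene at 40 of 46 (87.0%), against 87.6% of all bound genes. When a peak counted for the gene with the nearest TSS alone, *Ddx25*, *Ddx42*, *Ddx51*, *Dhx38* and *Dhx57* dropped out, which left 41 of 53 helicase genes (77.4%) and 35.1% of all protein-coding genes.

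Helicase genes have promoters rich in CpG, as many genes active in every cell do. The CpG ratio is the observed over the expected number of CG pairs within 500 bp on either side of the TSS. At genes with several TSSs it was taken at the TSS nearest a peak, so the peaks themselves chose the TSS. The effect of this choice on the values with and without a peak was not tested. The ratio had a median of 0.796 over the 53 genes and 0.528 over all protein-coding genes. At the 46 helicase genes with a peak the median was 0.815 (range 0.562 to 1.063), and at the 7 without it was 0.394 (0.175 to 0.797). The highest ratios were those of *Ddx17* (1.063) and *Ddx5* (1.014). Over all protein-coding genes the medians were 0.771 with and 0.264 without a peak.

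The share with a peak was therefore also read within CpG classes. At a ratio of 0.6 or more, 43 of 45 helicase genes had a peak (95.6%), against 75.5% of the 10013 protein-coding genes in that class. Below 0.6 it was 3 of 8 (37.5%), against 10.4% of 12351. The genes with a peak below 0.6 were *Ddx47* (0.562), *Ddx19b* (0.564) and *Dhx35* (0.573), all close to the limit. The CpG-rich genes without one were *Ddx3x* (0.797) and *Ddx4* (0.746). The ratio was 0.481 at *Ddx58*, 0.394 at *Ddx60*, 0.393 at *Ddx26b*, 0.216 at *Ddx43* and 0.175 at *Dhx58*. The value of *Ddx43* depends on the TSS, since at the start of its longest transcript the ratio was 0.988. Likewise at *Dhx32*, which has a peak, it was 0.756 at the TSS used and 0.299 at that of its longest transcript. By the longest transcript *Ddx43* would stand above 0.6 and *Dhx32* below it. Expression was not analysed here, and its part in the shares was not tested.

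**Figure D3:**
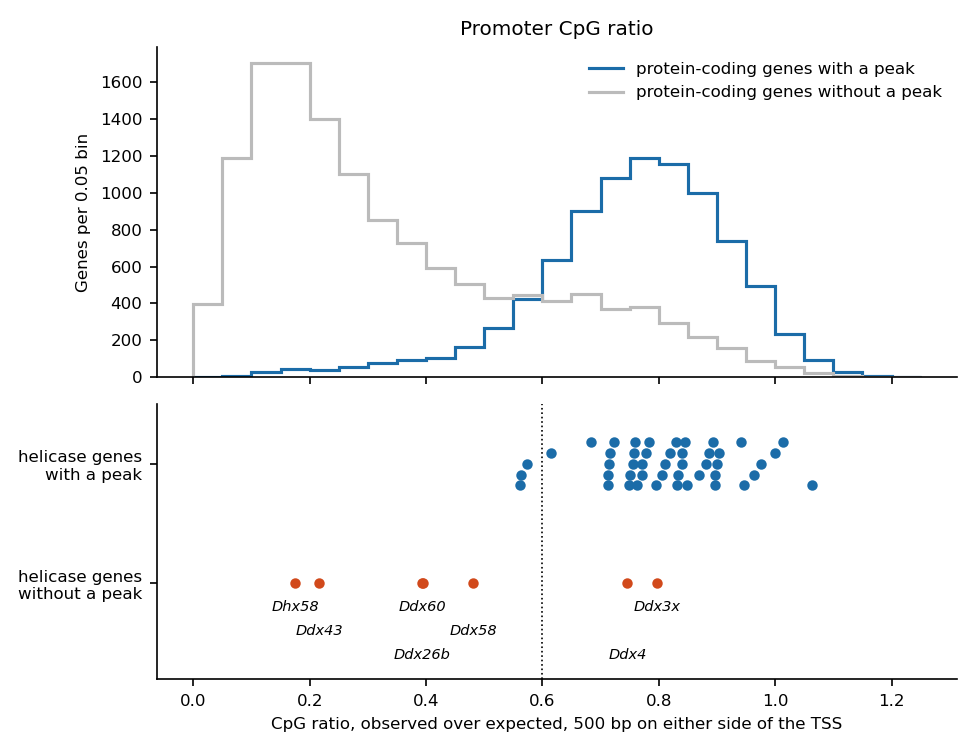
CpG ratio within 500 bp on either side of the TSS (x axis), taken at each gene's TSS nearest a peak. The upper panel counts protein-coding genes per bin with (blue) and without (gray) a gene-proximal BAP1 peak, and the lower panel shows each helicase gene as a point, with vertical offsets among those with a peak for legibility. The dotted line marks 0.6, above which 43 of 45 helicase genes have a peak, with *Ddx3x* and *Ddx4* as exceptions.

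The 200 bp of each peak were searched on both strands for 10 short motifs of factors that bind promoters. Matches are letters in the sequence, not sites of binding. Matches of different motifs did not overlap within the peaks of the helicase genes. Only SP/KLF or NRF1 matches overlapped others of their own kind. Of the nearest peaks at the 46 genes, 42 held at least 1 motif (91.3%), against 86.9% of the 10073 gene-proximal peaks, and 32 (69.6%) held one other than SP/KLF and TATAAA, against 52.0%.

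The ETS letters CCGGAAG, bound by factors such as GABPA, stood in 16 of 46 peaks (34.8%, 22.7 to 49.2), against 20.2% of all gene-proximal peaks and 5.60% of peaks beyond 1 kb of every TSS. They were found in 4 splicing and 5 ribosome biogenesis genes, and at *Ddx39b*, *Dhx36*, *Dhx8* and *Ddx25* there was more than 1 match. A match began within 150 bp of the TSS in 14 of the 16, all but *Ddx25* and *Dhx57*. At *Ddx27* it began at position 1 and at *Dhx34* at position 3, with the nearest own TSS as position 0 and upstream positions negative. The NRF1 letters GCGCNTGCG stood in 11 (23.9%, 13.9 to 37.9), against 15.7%. These were *Ddx10*, *Ddx11*, *Ddx25*, *Ddx39b*, *Ddx42*, *Ddx52*, *Ddx59*, *Dhx9*, *Dhx34*, *Dhx37* and *Dhx40*. Both motifs were in the peaks of 5 genes, *Ddx25*, *Ddx39b*, *Dhx9*, *Dhx34* and *Dhx37*.

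The CRE letters TGACGTCA, bound by CREB and ATF factors, stood in 6 peaks (13.0%, 6.12 to 25.7), against 3.35% of gene-proximal peaks. The genes were *Ddx19a*, *Ddx28*, *Ddx49*, *Ddx51*, *Dhx36* and *Dhx38*. The match began at position -45 in *Ddx19a*, at -44 in *Ddx51* and at -75 in *Ddx49*. The counts are small, and at *Ddx28*, *Ddx49*, *Ddx51* and *Dhx38* the same peak lies near the TSS of a divergent neighbor. The SP/KLF letters GGGCGG were the most frequent, in 27 peaks (58.7%, 44.3 to 71.7), against 68.6%.

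The other motifs were rare in these peaks. The YY1 letters AAGATGGC, of a factor known to associate with BAP1, stood in 3 (6.52%, 2.24 to 17.5), against 5.08%. They were at *Ddx1*, *Ddx23* and *Ddx47*, downstream of the TSS in each, beginning at positions 91, 10 and 27. The E-box CACGTG, read by MYC and USF factors, stood in 4 (8.70%, against 8.06%), at *Ddx11*, *Ddx18*, *Ddx39* and *Dhx33*. The E-box of *Ddx18* begins at position 70, outside the stretch printed. NF-Y letters AGCCAAT were in 3 (6.52%, against 9.28%), at *Ddx41*, *Dhx15* and *Dhx57*. ZNF143/THAP11 letters ACTACAA were in 1, at *Dhx30* (2.17%, against 2.92%). TATAAA was in 2, *Ddx5* and *Ddx39* (4.35%, against 2.41% of gene-proximal and 12.3% of other peaks). BANP letters CTCGCGAG were in 0 of 46 (upper limit 7.71%), against 1.91%. Of these 10 motifs, the interval for the helicase genes left out the share in all gene-proximal peaks for ETS and CRE, and for the other 8 it held that share. The 2 sets differ, since the 10073 peaks include further peaks of a gene and peaks near a TSS of any annotated gene. Over all 62 gene-proximal peaks of the helicase genes, ETS letters were in 20, CRE letters in 7 and SP/KLF letters in 38. Overlapping peaks can share a match in these counts, as with the CRE of *Ddx49* at position -75, which lies in both of its peaks.

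**Figure D4:**
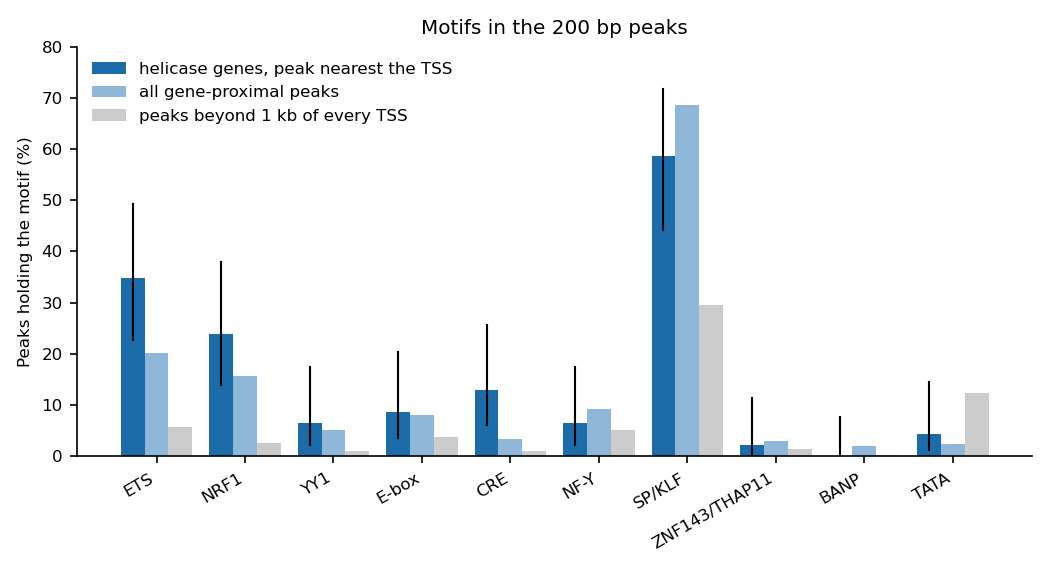
Percent of 200 bp peaks holding each motif on either strand (y axis) for 10 motifs (x axis). Dark bars are the nearest peaks of 46 helicase genes with Wilson 95% intervals, light bars all 10073 gene-proximal peaks, and gray bars the peaks beyond 1 kb of every TSS. ETS (34.8% against 20.2%) and CRE (13.0% against 3.35%) stand above the light bars beyond their intervals.

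The promoters of the 7 genes without a peak were searched over 300 bp, from 250 before to 50 after the start of the longest transcript. SP/KLF letters, present in 44.5% of such windows of all protein-coding genes, were found at *Ddx3x*, *Ddx4*, *Ddx26b*, *Ddx43* and *Ddx58*. TATAAA (13.3%) was found at *Ddx58* and *Ddx60*. *Ddx3x* held the BANP letters (1.19%), *Ddx4* an E-box (7.90%) and NF-Y letters (8.61%), and *Ddx26b* NF-Y and ZNF143/THAP11 letters (3.66%). ETS letters (11.0%), NRF1 letters (8.24%), YY1 letters (3.33%) and CRE letters (2.34%) were in none of the 7 windows. For 4 of these genes the nearest peak lay at a protein-coding neighbor, with *Kat2a* 4 bp from the peak nearest *Dhx58*, *Mto1* 18 bp from that nearest *Ddx43*, *Cbr4* 29 bp from that nearest *Ddx60* and *Slc38a9* 111 bp from that nearest *Ddx4*.

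Chosen lists of related helicases, and of genes from families that hold cofactors of DEAD and DEAH box helicases, were counted in the same way. Related helicases under other symbols had a peak at 11 of 17 (64.7%, 41.3 to 82.7). The DEAD box initiation factor genes *Eif4a1* and *Eif4a2* had 3 and 2 peaks, the nearest at 1 and 25 bp, and *Eif4a3*, of the exon junction complex, had 1 at 18 bp. *Snrnp200*, which unwinds spliceosomal RNA, had a peak at 61 bp and *Skiv2l2* at 228 bp. The genes without one were *Ifih1*, which encodes the RNA sensor MDA5, the germ cell genes *D1Pas1*, *Tdrd9* and *Hfm1*, and *Dqx1* and *Aqr*. *Aqr* encodes a spliceosomal helicase, and the nearest peak lay 14467 bp away. Some G-patch proteins switch on DEAH box helicases, and 16 of the 17 G-patch genes listed had a peak (94.1%, 73 to 99). The exception was *Rbm10*, with its nearest peak 27400 bp away. Among genes for MIF4G-type and other regulators of DEAD box proteins, which hold activators as well as inhibitors such as *Pdcd4*, 12 of 13 had one (92.3%, 66.7 to 98.6), all but *Eif4g3*. *Eif4g1*, the partner of the initiation helicase, had its peak at 4 bp, *Gle1*, the activator of the export helicases, at 17 bp and *Cwc22*, the partner of *Eif4a3*, at 6 bp. All 47 related helicase and partner genes together had a peak at 39 (83.0%, 69.9 to 91.1), against the 39.6% of all protein-coding genes.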

How the data were processed

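Per the submitters' processing notes, the authors used Bowtie 1.0.0 and MACS 1.4.2 with build mm9 to turn ChIP-Seq reads into peaks. The deposited list gives chromosome, start, end and name of each peak. Neither its threshold nor how the samples were joined is given in the sources used here, and the effect of another threshold was not tested. Per-sample columns left unmapped numbered 0.

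Peaks were compared with all transcript TSSs of GENCODE mouse release 1 (M1) on NCBIM37, with mitochondrial genes left out. Genes named were those without a peak, with more than 1, nearest and farthest, with a neighbor's TSS within 1 kb, and each gene once in its role list. For sequences, the gene nearest its TSS was shown for each motif, with departures where a run of untranslated exon over 30 bases would have been printed. Of the partner genes listed, *Gpatch11* was not analysed here. The genes and lists were chosen with earlier results of these data known. The CpG limits of 0.6 and 0.75 and the count without *Ddx26b* were chosen after seeing the data. Intervals are Wilson 95% intervals. Scripts were tested on simulated data, with Python 3.11.15, numpy 2.4.6, scipy 1.17.1, pysam 0.24.0, matplotlib 3.10.9 and samtools 1.23.1.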

Additional observations from a re-analysis of the deposited data

How the results depend on the processing

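The number of helicase genes with a gene-proximal peak was 41 to 47 over the settings tried, against 46 as reported. Within 500 bp it was 44 (without *Ddx25* and *Ddx42*), and within 2 kb or 5 kb it was 47 (with *Ddx26b*). With the TSS of the longest transcript alone it was 44 (without *Ddx19b* and *Dhx32*), and with each peak given to the gene of the nearest TSS it was 41. The share of all protein-coding genes moved beyond its counting interval in these settings, to 38.6% within 500 bp, 40.4% within 2 kb, 42.5% within 5 kb, 37.6% with one TSS per gene and 35.1% with the nearest gene alone. Use of the peak's edge, of TSSs of protein_coding transcripts, or of peaks merged within 500 bp left the number at 46. Merging lowered the peaks at these genes from 62 to 48. With *Ddx3y* the share was 85.2%, and without *Ddx26b*, an alternative chosen after seeing the data, 88.5%. The median distance was 52.0 bp with one TSS per gene and 47.5 bp after merging, against 40.0 bp. The median CpG ratio was 0.860 within 250 bp and 0.797 at the longest transcript's TSS. With a CpG limit of 0.75, likewise chosen late, 97.1% of CpG-rich helicase genes and 80.3% of CpG-rich protein-coding genes had a peak. No paired analysis was possible because the result comes from 1 list and no test. For the same reason no sample could be left out, and depth and the threshold of the peak caller, which limit what an absent peak can say, are unknown from the list.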
